A study of Mus musculus with 4 samples.

Results

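The kynurenine pathway and the NAD metabolism attached to it were followed through 10 of 19752 named genes in livers that lack RAP1 and in wild-type livers. The genes were Tdo2, Afmid, Kmo, Kynu, Haao, Acmsd, Qprt, Nampt, Nnmt and Aox3. Every probe of the array whose accession belongs to 1 of them was taken, which gave 12 of 55681 probes. Of the 10 genes, 8 had 1 probe, and Kmo and Kynu had 2 probes each. All 12 probes were well above background on 4 of 4 arrays in both genotypes, so none was lost to the filter on dim probes.

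The study asked which liver genes are expressed differently in mice that lack RAP1, a telomere-binding protein of the shelterin complex that also binds along chromosome arms. Total liver RNA of Rap1 -/- and wild-type mice of 30 weeks, both C57BL6/129SV (90%:10%), was hybridised to Agilent 2-colour arrays, and each array carried both genotypes. On 3 arrays (replicates 1, 2 and 3) the Rap1-deficient liver was labelled with Cy5 and the wild-type liver with Cy3, and on 1 array (the dye swap, numbered 1 in the labels) the dyes were exchanged. Rap1 was deleted constitutively in the whole body with EIIa-cre, which was then bred out, so no cell type of the liver keeps the gene, and the deletion was present before the mice became obese. The labels give no sex, and the study describes its animals of this experiment as females, at a later age than the labels give.

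In the liver, most tryptophan that is not used for protein is opened by tryptophan dioxygenase and passed down the kynurenine pathway, which ends either in quinolinate, a precursor of NAD, or in glutarate, which is burned. NAD is also rebuilt from its own breakdown product nicotinamide by a salvage route, and surplus nicotinamide is methylated and oxidised for excretion. Most of these enzymes are far more abundant in hepatocytes than in other liver cells, and kynurenine itself can alternatively be transaminated to kynurenic acid.

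Each value below is a log2 ratio of Rap1-deficient over wild-type liver, with the sign of the dye swap turned so that all 4 arrays read the same way. For the test, the dye swap was averaged with replicate 1, which left n = 3 pairs, and a probe was called where limma gave a false discovery rate under 0.15, the threshold of the study. Because 3 of 4 arrays carry Rap1-deficient liver in the same dye, a second estimate with a term for the dye, called dye-balanced here, stands beside it. With only 1 array in the other orientation, the spread behind its intervals and p-values comes from the 3 arrays alone. The spread of the dye swap, which weighs as much in this estimate as the mean of those 3, is not measured.

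Some features of the whole array touch every value. The gene that encodes RAP1, Terf2ip, was lower in Rap1-deficient liver with probe A_52_P381806 on all 4 arrays (log2 ratios of -1.74, -1.92, -1.91 and -1.68 on replicates 1, 2, 3 and the dye swap). In Rap1-deficient liver this probe was well above background on 0 of 4 arrays, against 4 of 4 in wild-type liver, so it was at least 3.33-fold lower (adjusted p = 0.00859). The probe A_55_P2094079 of the same gene was higher on all 4 arrays, with a log2 fold change of 0.96 (adjusted p = 0.0329), and where these probes lie relative to the deleted part is not known here. The turned ratios of the dye swap correlated with those of replicates 1, 2 and 3 at -0.24, -0.29 and -0.27 over all tested probes, whereas the 3 other arrays correlated among themselves at 0.64 to 0.85. On those 3 arrays the wild-type channel also varied less than the Rap1-deficient one, with a median SD over the 3 arrays of 0.149 in Rap1-deficient and 0.0591 in wild-type liver on the log2 scale. Genotype and dye cannot be told apart in that difference. It was shared by 83.6% of all tested probes after quantile normalization within each dye, and by 11 of the 12 member probes in the intensities printed below. Between these arrays the channels correlated at 0.982 to 0.992 in Rap1-deficient and at 0.998 in wild-type liver. The design text counts 3 biological replicates for each genotype, and whether the wild-type channels hold RNA of separate livers was not tested, so p-values measure the spread between these samples, which may be technical in part.

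Of the 12 member probes, 4 were called (33.3%), against 34.5% of all 27513 tested probes. Among them 3 were higher (25%, against 20.8% of all tested probes) and 1 was lower (8.33%, against 13.7%). The share of members called was thus near that of the array as a whole, where 9488 probes were called. At the same threshold the study reports far fewer deregulated probes in liver, so a call here is not equivalent to a call there. Why the counts differ was not tested. The median log2 fold change of the member probes was 0.10, against 0.03 over all tested probes, and their median distance from 0 was 0.24, against 0.18. Of the 12 probes, 10 had a negative ratio on the dye swap. The median ratio of all tested probes there was -0.01, and their share below 0 was not counted. Only 2 member probes (16.7%, against 21.5% of all tested probes) had the same sign on all 4 arrays. These were a Kmo probe, positive throughout, and the Acmsd probe, negative throughout. The ratio differed between the dye orientations for 2 member probes at the same threshold (16.7%, against 27.6% of all tested probes), and with 1 array in the second orientation the dye and that array cannot be told apart. The number of member probes called was 1 with the dye term, the Kmo probe A_55_P2145606, higher. With this term 6.7% of all tested probes were called, 4.61% higher and 2.09% lower. With the dye swap as a replicate of its own in limma, 0 member probes were called, against 0.302% of all tested probes. In that fit 3 member probes and 5578 of all 27513 tested probes had an unadjusted p under 0.05. Without the dye swap 6 member probes were called, against 52.7% of all tested probes. Without replicate 2 the number of member probes called was 0 in limma, against 0.0254% of all tested probes. There 1 member probe and 3904 of all 27513 tested probes had an unadjusted p under 0.05. Without replicate 3 the number of member probes called was 1 (against 9.94%). Without replicate 1, which also leaves out the dye swap, it was 7 (against 45.8%). Under the 16 alternative settings tried, the Kmo probes A_55_P2145606 and A_66_P106836 were called in 14 and 12, the Kynu probe A_52_P118560 in 8 and Tdo2 in 6. Without the dye swap their log2 fold changes were 1.68, 0.45, -0.38 and 0.48, in the same order.

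**Figure D1:**
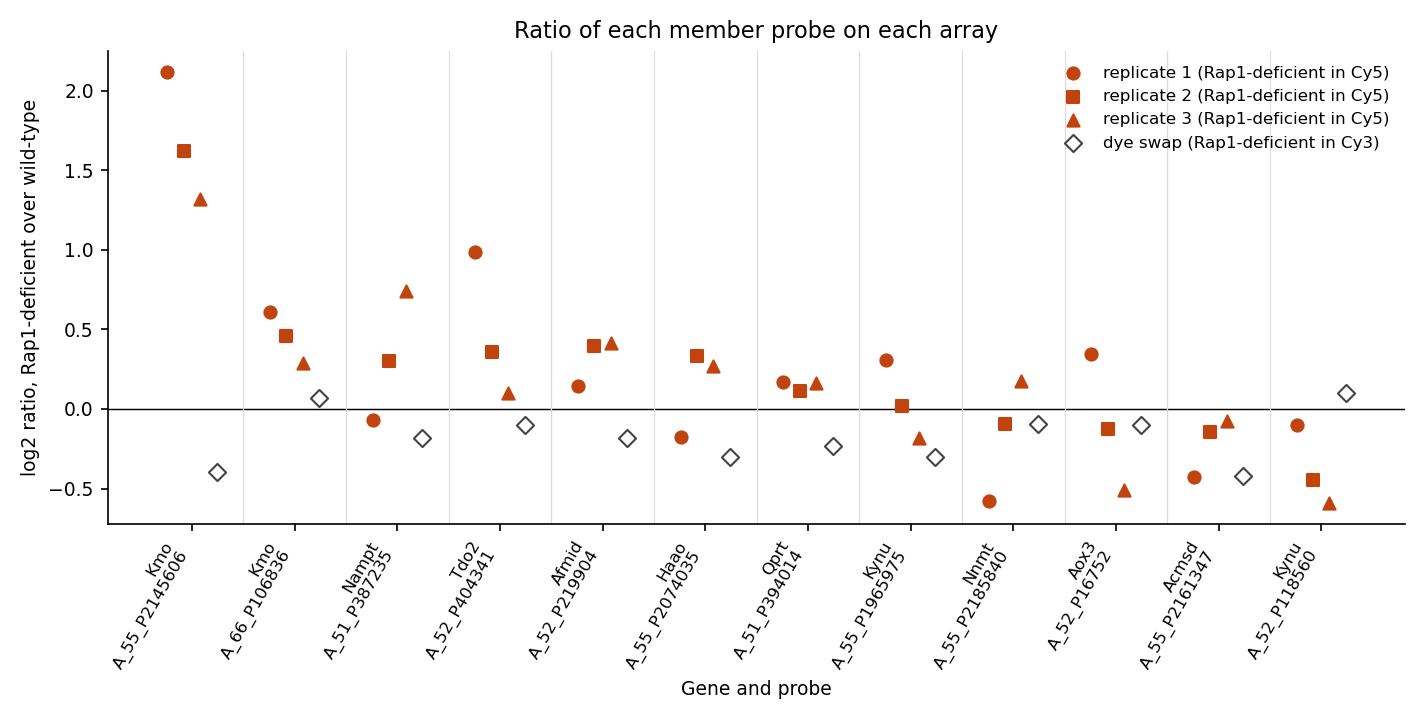
Log2 ratio of Rap1-deficient over wild-type liver (vertical axis) for the 12 member probes (horizontal axis) on each array. Filled symbols are the 3 arrays with Rap1-deficient liver in Cy5 and open diamonds are the dye swap. The diamonds lie below 0 for 10 probes, and all 4 symbols lie on 1 side of 0 for the Kmo probe A_66_P106836 and for Acmsd. Over all tested probes the median ratio on the dye swap was -0.01.

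The entry of tryptophan into the pathway was followed through Tdo2 and Afmid. Tdo2 encodes tryptophan dioxygenase, the enzyme that limits the flow through the pathway in liver and that glucocorticoids induce. Its intensity was 8270, 5117, 4518 and 5149 in Rap1-deficient liver on replicates 1, 2, 3 and the dye swap, against 4184, 3999, 4215 and 5522 in wild-type liver. The Rap1-deficient value of replicate 1 stood far above the others, and the remaining values of both genotypes overlapped. The log2 ratios were 0.98, 0.36, 0.10 and -0.10 in the same order. Over 3 pairs Tdo2 was called higher, with a log2 fold change of 0.30 ± 0.10 (SE, 95% confidence interval 0.05 to 0.55, adjusted p = 0.108). The dye-balanced value was 0.19 (adjusted p = 0.619), and without replicate 1 and the dye swap the log2 fold change was 0.23 (adjusted p = 0.189).

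Tdo2 lies on the minus strand of chromosome 3 (chr3:81958412-81975728, GRCm38.p6, the build of the RefSeq table used for names). The 250 bases before its start site (chr3:81975729-81975978, RefSeq) are shown because Tdo2 is the entry enzyme, with the letters AGGTCA, the half-site of many nuclear receptors, in capitals on whichever strand they occur.
Tdo2: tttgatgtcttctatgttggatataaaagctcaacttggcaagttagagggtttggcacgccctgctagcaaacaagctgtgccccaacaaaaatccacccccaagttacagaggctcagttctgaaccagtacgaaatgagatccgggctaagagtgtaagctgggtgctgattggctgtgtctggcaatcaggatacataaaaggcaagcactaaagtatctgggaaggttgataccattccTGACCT
The match, on the reverse strand, ended at the start site. The same letters were found in 14% of 32851 RefSeq windows of this length.

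Afmid encodes kynurenine formamidase, which turns the product of tryptophan dioxygenase into kynurenine. Its intensity was 1395, 1694, 1550 and 1594 in Rap1-deficient liver on replicates 1, 2, 3 and the dye swap, against 1264, 1288, 1163 and 1807 in wild-type liver. The Rap1-deficient values differed little between the dyes, while the wild-type liver read highest in Cy5, on the dye swap. The ratios were 0.14, 0.39, 0.42 and -0.18. Afmid was not called over 3 pairs (log2 fold change 0.26 ± 0.12, SE, adjusted p = 0.178). Its dye-balanced log2 fold change was 0.07.

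Kmo, kynurenine 3-monooxygenase, commits kynurenine to the branch that leads to NAD and to glutarate. It had the highest log2 fold change of the members, and its 2 probes agreed on the direction over 3 pairs but not on its size or on the dye swap. With probe A_66_P106836, the brighter one, the intensity was 10756, 9753, 7866 and 8111 in Rap1-deficient liver on replicates 1, 2, 3 and the dye swap, against 7048, 7109, 6449 and 7742 in wild-type liver. Every Rap1-deficient value lay above every wild-type value, and the ratio was above 0 on each array (0.61, 0.46, 0.29 and 0.07). The log2 fold change was 0.36 ± 0.09 (SE, 95% confidence interval 0.15 to 0.57, adjusted p = 0.0576). The dye-balanced value was 0.26 (95% confidence interval 0.03 to 0.49), with an adjusted p of 0.237.

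With the Kmo probe A_55_P2145606 the intensity was 2973, 2074, 1663 and 1347 in Rap1-deficient liver, against 686.3, 673.7, 667.7 and 1769 in wild-type liver, in the same order of arrays. The wild-type liver thus read 2.62 times higher in Cy5 on the dye swap than in Cy3 on the mean of the other arrays. Within Cy3, the Rap1-deficient value lay above all 3 wild-type values, and within Cy5, 2 of 3 Rap1-deficient values lay above the wild-type one. The ratios were 2.11, 1.62, 1.32 and -0.39. The probe was called over 3 pairs, with a log2 fold change of 1.27 ± 0.16 (SE, 95% confidence interval 0.88 to 1.66, adjusted p = 0.0402). The dye-balanced value was 0.65 (95% confidence interval 0.25 to 1.04, adjusted p = 0.135), and the ratio of this probe differed between the dye orientations (adjusted p = 0.0204). Set against the brighter probe on the same array, its ratio was higher by 1.51, 1.17 and 1.03 on replicates 1, 2 and 3, and it differed by -0.46 on the dye swap.

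Kmo lies on chromosome 1 (chr1:175632193-175660853, GRCm38.p6), and the 250 bases before its start site (chr1:175631943-175632192, plus strand, RefSeq) are shown as those of the only member with more than 1 called probe.
Kmo: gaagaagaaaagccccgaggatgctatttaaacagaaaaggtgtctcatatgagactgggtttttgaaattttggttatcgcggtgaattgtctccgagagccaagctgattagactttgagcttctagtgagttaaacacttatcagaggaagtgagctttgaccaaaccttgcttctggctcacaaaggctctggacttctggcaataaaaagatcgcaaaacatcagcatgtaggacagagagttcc
Neither AGGTCA nor TTAGGG, the telomere repeat unit, nor TGTTCT, a half-site of the glucocorticoid receptor, was found in these letters on either strand, so no base is in capitals. TTAGGG was found in 9.32% of all windows and in 0 of the 7 windows of members examined here. TGTTCT was found in 16.1% of all windows and in 1 of the 7, that of Haao. AGGTCA was found in 3 of the 7 windows, those of Tdo2, Haao and Nampt. These matches describe letters only, and Kynu and Nnmt had no window in the table.

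**Figure D2:**
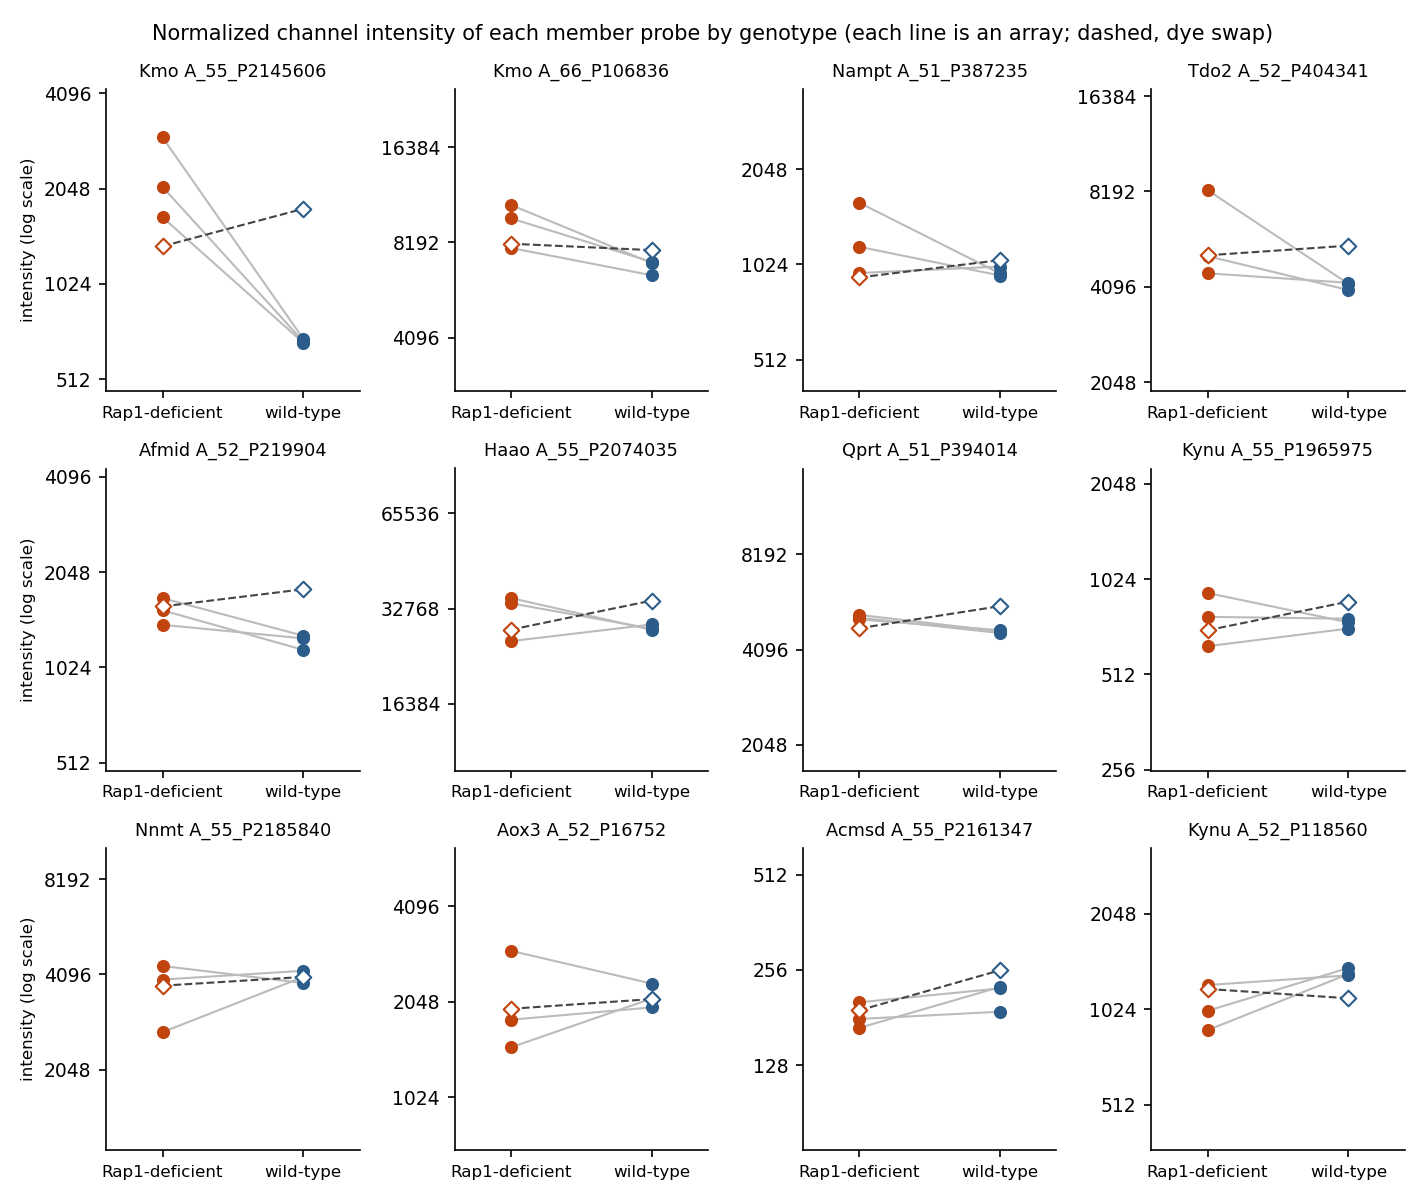
Normalized intensity (vertical axis, log scale with the same span in each panel) of each member probe in Rap1-deficient liver (left) and wild-type liver (right). Each line joins both channels of 1 array, and open diamonds with a dashed line are the dye swap. For the Kmo probe A_55_P2145606 the wild-type value lies at 667.7 to 686.3 in Cy3 and at 1769 in Cy5, and for the Kmo probe A_66_P106836 all Rap1-deficient values lie above all wild-type values.

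The middle steps were followed through Kynu and Haao. Kynu encodes kynureninase, which cleaves the product of Kmo to 3-hydroxyanthranilate. Its probe A_52_P118560 read 1222, 1013, 879.9 and 1187 in Rap1-deficient liver on replicates 1, 2, 3 and the dye swap, against 1311, 1383, 1323 and 1109 in wild-type liver. The Rap1-deficient value was the lower one on the 3 arrays with that liver in Cy5 and the higher one on the dye swap (ratios of -0.10, -0.45, -0.59 and 0.10). This probe was called lower over 3 pairs (log2 fold change -0.35 ± 0.13, SE, 95% confidence interval -0.68 to -0.01, adjusted p = 0.138). The dye-balanced value was -0.14 (adjusted p = 0.566).

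The Kynu probe A_55_P1965975 read 925.9, 778.2, 628.8 and 706.1 in Rap1-deficient liver, against 747.7, 768, 714.7 and 869.6 in wild-type liver. The genotypes overlapped, and the ratios (0.31, 0.02, -0.18 and -0.30) had no common sign. Its log2 fold change was -0.05 (adjusted p = 0.697). The call on Kynu was thus made on 1 of its 2 probes, whose ratios differed by -0.41, -0.47 and -0.40 on replicates 1, 2 and 3 and by 0.40 on the dye swap.

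Haao encodes 3-hydroxyanthranilate dioxygenase, whose unstable product is the branch point between quinolinate and glutarate. It read 25852 to 35359 in Rap1-deficient liver and 28059 to 34708 in wild-type liver. The ratios were -0.17, 0.33, 0.27 and -0.30, the wild-type range lay within the Rap1-deficient one, and the log2 fold change was 0.12 (95% confidence interval -0.22 to 0.46, adjusted p = 0.561).

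At the branch point, Acmsd diverts the product of Haao toward glutarate and away from NAD, and Qprt turns quinolinate into the first nucleotide on the way to NAD. Acmsd read 168, 202.3, 179.3 and 190.9 in Rap1-deficient liver on replicates 1, 2, 3 and the dye swap, against 226.2, 223.9, 189 and 255.5 in wild-type liver. The Rap1-deficient value was lower on every array (ratios of -0.43, -0.15, -0.08 and -0.42), while over all arrays the ranges of the genotypes overlapped through the wild-type value of replicate 3. Acmsd was not called over 3 pairs, with a log2 fold change of -0.22 ± 0.10 (SE, 95% confidence interval -0.47 to 0.04, adjusted p = 0.201). The dye-balanced value was -0.32 (95% confidence interval -0.56 to -0.08, adjusted p = 0.193). The log2 fold change was -0.52 with the authors' software-processed signals (adjusted p = 0.0666), -0.04 with median centring (adjusted p = 0.892) and -0.11 without replicate 1 and the dye swap (adjusted p = 0.416). Acmsd was called under 5 of 16 alternative settings.

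Qprt read 5272, 5099, 5165 and 4785 in Rap1-deficient liver, against 4678, 4717, 4620 and 5618 in wild-type liver, in the same order. The Rap1-deficient level varied little over all arrays, and the wild-type level was highest in Cy5. The ratios were 0.17, 0.11, 0.16 and -0.23, and the log2 fold change was 0.08 (95% confidence interval -0.14 to 0.30, adjusted p = 0.543). The ratio of Acmsd was below that of Qprt on all 4 arrays, by -0.60, -0.26, -0.24 and -0.19 (dye-balanced -0.28), a pair chosen after the values were seen and given with no test.

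**Figure D3:**
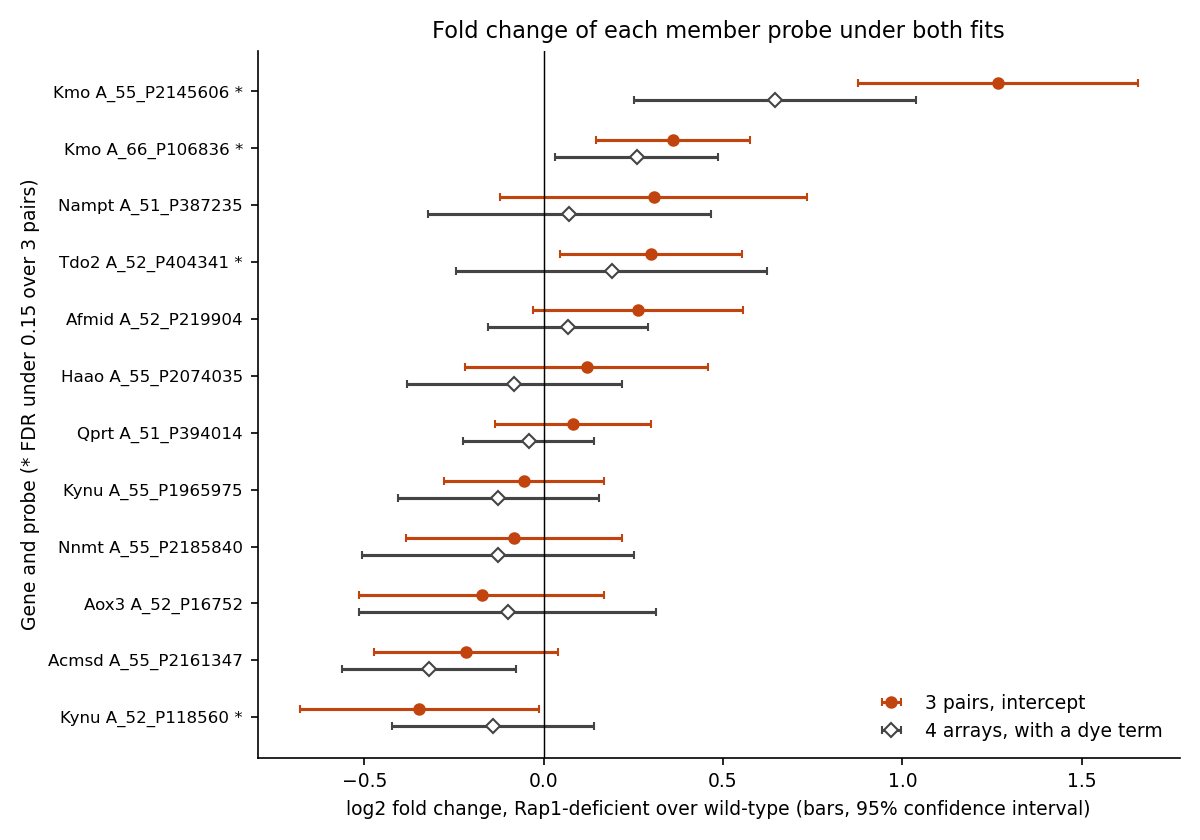
Log2 fold change of Rap1-deficient over wild-type liver (horizontal axis) for the 12 member probes (vertical axis), from 3 pairs (filled circles) and from 4 arrays with a dye term (open diamonds), with 95% confidence intervals. An asterisk marks the 4 probes called over 3 pairs. Over 3 pairs the interval of the Kmo probe A_55_P2145606 (0.88 to 1.66) lies apart from that of the probe next to it (0.15 to 0.57), and with the dye term these intervals overlap (0.25 to 1.04 and 0.03 to 0.49).

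In the order of log2 fold changes over 3 pairs the other 10 neighbouring intervals overlapped. Of all 66 pairs of member probes, 15 had intervals that lay apart in the fit over 3 pairs, 11 of them with the Kmo probe A_55_P2145606. The others were the Kmo probe A_66_P106836 and Tdo2, each above Acmsd and the Kynu probe A_52_P118560. With the dye term 7 lay apart, 6 of them with the Kmo probe A_55_P2145606 and 1 being the Kmo probe A_66_P106836 above Acmsd.

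Salvage and disposal of nicotinamide were followed through Nampt, Nnmt and Aox3, none of which was called. Nampt, the enzyme that limits NAD salvage, read 961.6, 1164, 1603 and 930.9 in Rap1-deficient liver on replicates 1, 2, 3 and the dye swap, against 1008, 944.1, 958.2 and 1056 in wild-type liver. Its ratios were -0.07, 0.30, 0.74 and -0.18, highest on replicate 3, and the log2 fold change was 0.31 ± 0.17 (SE, adjusted p = 0.261). Without replicate 3 it was 0.09, and without replicate 1 and the dye swap it was 0.52 (adjusted p = 0.0546). Nampt is also expressed by neutrophils and macrophages. Of 4 tested neutrophil markers none was called, and their median ratio was -0.53, -0.31, 1.61 and -0.33 on replicates 1, 2, 3 and the dye swap. Their summed intensity was 31731 to 56921 in Rap1-deficient liver and 33924 to 38261 in wild-type liver. Of 6 tested Kupffer cell and macrophage markers, 0 were called higher and 1, Vsig4, was called lower, and their median ratio was -0.60, 0.07, 1.15 and -0.23. Their summed intensity was 15814 to 53606 in Rap1-deficient liver and 22973 to 25257 in wild-type liver. Among the defining markers, Cd163 and Ngp did not pass the filter. The part of these cells in the ratio of Nampt was not tested, and in whole liver a change in the number of cells of a type cannot be told apart from a change of RNA per cell.

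Nnmt, which methylates nicotinamide and is known for its rise in fat tissue of obese mice, read 2690, 3945, 4354 and 3773 in Rap1-deficient liver, against 4021, 4205, 3846 and 4020 in wild-type liver. Its ratios were -0.58, -0.09, 0.18 and -0.09, and the Rap1-deficient range covered the wild-type one. The log2 fold change was -0.08 (95% confidence interval -0.38 to 0.22, adjusted p = 0.653). Aox3, the main aldehyde oxidase of mouse liver, oxidises methylated nicotinamide. It read 2966, 1797, 1470 and 1945 in Rap1-deficient liver, against 2337, 1965, 2096 and 2088 in wild-type liver. Its spread over the 3 arrays with Rap1-deficient liver in Cy5 was the largest of the members in that genotype (SD 0.52 on the log2 scale, against 0.13 in wild-type liver). The ratios were 0.34, -0.13, -0.51 and -0.10, and the log2 fold change was -0.17 (adjusted p = 0.410).

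Around these members, 75 further genes of 11 lists were tested, each by its brightest probe. Of them 23 were called (30.7%, against 34.1% of all 13167 named genes), 15 higher and 8 lower (18% and 16.1% of all named genes), with a median log2 fold change of 0.03, against 0.00489 over all named genes. Of the 23 called genes, 7 had the same sign on all 4 arrays and 16 did not. Among all called probes of the array, 35% had the same sign on all 4 arrays. With the dye term 6 of the 75 genes were called, against 6.7% of all tested probes. Of these, Kyat1 and Ppara had 1 sign on all 4 arrays, while Ahcy, Nudt12, Sirt1 and Sirt4 did not. Apart from genes of 1 sign on all arrays, the list genes below are named because they were called, after their values were seen. Got2, Aox1, Nr3c1, Tat, Cyp1a1, Cyp1a2 and Cyp1b1, which were not called, were likewise chosen after their values were seen.

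Kyat1 encodes kynurenine aminotransferase I, which withdraws kynurenine from the pathway as kynurenic acid. Its brightest probe, A_66_P115996, read 19654, 17147, 15891 and 18371 in Rap1-deficient liver on replicates 1, 2, 3 and the dye swap, against 30047, 29236, 29309 and 26053 in wild-type liver. The genotypes did not overlap in either dye. The ratios were -0.61, -0.77, -0.88 and -0.50. Kyat1 fell by 0.74 on the log2 scale (SE 0.10, 95% confidence interval -0.98 to -0.49, adjusted p = 0.0402), and the dye-balanced value was -0.63 (adjusted p = 0.0544). Its probe A_55_P2096652 was lower on all 4 arrays too (-0.28, -0.37, -0.42 and -0.67), with a log2 fold change of -0.42 (adjusted p = 0.0436) and a dye-balanced value of -0.51 (adjusted p = 0.0599). Without replicate 2 the call on the brightest probe was lost at a log2 fold change of -0.72 (adjusted p = 0.267). The related Kyat3 was at -0.08 (adjusted p = 0.506) and Got2, which can also transaminate kynurenine, was at 0.10, so 1 of 3 tested genes of the transamination branch was called. Aadat did not pass the filter.

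In the list of tryptophan uptake and the first step, 1 of 5 tested genes was higher and 1 was lower. Ido2, a second route into the pathway, was at 0.29 and the amino acid transporter Slc7a8 at -0.35, and both turned sign on the dye swap (-0.18 and 0.05). Ido1, the inducible enzyme of immune cells, was not well above background on any array. In the glutarate branch 2 of 5 genes were called, both higher. Dlst, a subunit of ketoglutarate dehydrogenase, was at 0.26 (adjusted p = 0.0974) and above 0 on all 4 arrays, and Dhtkd1 was at 0.92 but at -0.35 on the dye swap. Of 4 tested genes of serotonin and other tryptophan routes, 1 was called, the monoamine oxidase gene Maoa, at -0.34 (adjusted p = 0.0850) with the same sign on every array.

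The list of NAD assembly and related enzymes, not all of which assemble NAD, had 12 tested genes, with 3 higher and 1 lower. Nadk2, the mitochondrial NAD kinase, was at 0.28 (adjusted p = 0.0873) and positive on all 4 arrays, though only by 0.01 on the dye swap. Nmnat1, the nuclear adenylyltransferase that completes NAD, was at 0.64 and -0.27 on the dye swap, Nudt12 at 0.90 and -0.03, and Pnp2 at -0.40 and 0.33. The dye-balanced value of Nudt12 was 0.53 (adjusted p = 0.0570). Naprt, which starts NAD synthesis from nicotinic acid, was near 0 on every array (log2 fold change -0.08, adjusted p = 0.529). Among 17 tested genes that use NAD, 4 were higher (Sirt2, Sirt4, Parp1 and Parp2) and 2 were lower (Sirt1 and Cd38). Sirt1 was at -0.74 over 3 pairs and 0.16 on the dye swap, with a dye-balanced value of -0.38 (adjusted p = 0.134). Sirt4 was at 0.84 and -0.13, with a dye-balanced value of 0.44 (adjusted p = 0.0839). Another Sirt4 probe had a dye-balanced value of 0.10 (adjusted p = 0.545). None of the 17 genes had the same sign on all 4 arrays, against 21.5% of all tested probes that did.

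The enzymes that supply and clear the methyl donor used by Nnmt held 2 higher genes of 3. Mat1a, which makes S-adenosylmethionine in liver, was at 0.44 (adjusted p = 0.0525) with ratios of 0.69, 0.64, 0.34 and 0.02. Ahcy, which clears its product, had ratios of 3.24, 2.51, 2.29 and -0.80, a log2 fold change of 2.01 (adjusted p = 0.0402) and a dye-balanced value of 0.94 (adjusted p = 0.0972). Of the 3 genes of the pyridoxal cofactor that kynureninase needs, the phosphatase gene Pdxp was called, at 0.50 (adjusted p = 0.0710) and positive on all 4 arrays. Its Rap1-deficient channel was well above background on each of the 4 arrays and its wild-type channel on 2, so Pdxp passed the filter through the higher genotype. Of 7 tested genes of aldehyde oxidases and their molybdenum cofactor, 1 was called, Xdh, at 0.41 and -0.10 on the dye swap. Gphn, which builds the cofactor, had -0.16 (adjusted p = 0.234) with the same sign on all 4 arrays. The aldehyde oxidase genes next to Aox3 on chromosome 1 differed in detection, since Aox1 was at -0.11 (not called) and Aox2 and Aox4 were not well above background on any array.

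Regulators known for Tdo2, Acmsd or Nampt held 1 higher and 1 lower gene of 9 tested. Ppara, the receptor that represses Acmsd in rodent liver, read 10577, 9893, 9826 and 8661 in Rap1-deficient liver with its brightest probe, against 5318, 5172, 5266 and 7827 in wild-type liver. The genotypes did not overlap, and the ratios were 0.99, 0.94, 0.90 and 0.15. Its log2 fold change was 0.80 (adjusted p = 0.0402) and its dye-balanced value 0.54 (adjusted p = 0.0540). The wild-type liver read 1.49 times higher in Cy5 than in Cy3 with this probe. Its ratio differed between the dye orientations with the dye term in limma (adjusted p = 0.0328). The study reports the opposite direction by other methods, with lower Ppara by qPCR in livers of younger Rap1-deficient females and lower PPARα protein by western blot. The Ppara probe A_55_P2071601 had 0.68 (adjusted p = 0.0402), whereas A_55_P2071596 had -0.21 (adjusted p = 0.268) and 0.39 on the dye swap, so the probes of this gene disagree. Clock was at -0.76 over 3 pairs and 0.26 on the dye swap. The glucocorticoid receptor Nr3c1 was at -0.23 and its target Tat at 0.22, neither called. Of 7 tested genes of the aryl hydrocarbon receptor, for which kynurenine and kynurenic acid are ligands, 1 was called, Arnt, at -0.36, with 0.25 on the dye swap and 0.02 with another probe. The targets Cyp1a1, Cyp1a2 and Cyp1b1 were not called.

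**Figure D4:**
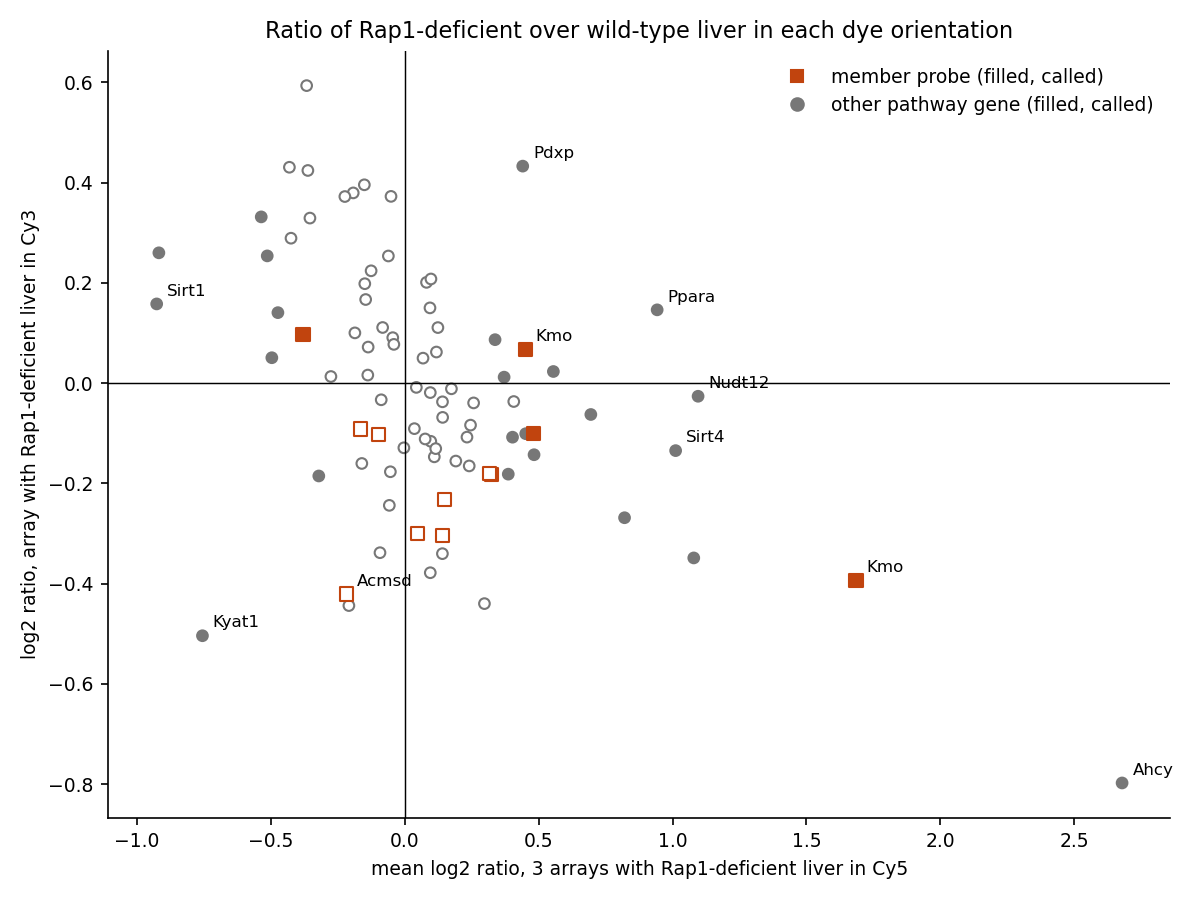
Mean log2 ratio of Rap1-deficient over wild-type liver on the 3 arrays with Rap1-deficient liver in Cy5 (horizontal axis) against the ratio on the dye swap (vertical axis), for 12 member probes (squares) and 75 other pathway genes (circles), filled where called over 3 pairs. Kyat1 (-0.50 on the dye swap) lies at the lower left and Ppara (0.15) to the upper right, while 16 of the 23 called pathway genes lie in quadrants of opposite sign. Among all called probes of the array, 35% had the same sign on all 4 arrays.

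The tissue label was checked with 7 hepatocyte markers, all tested and bright, whose summed intensity was 456500 to 623110 in Rap1-deficient liver and 461310 to 601340 in wild-type liver. Of these Alb was called higher (0.54, with -0.53 on the dye swap) and Serpina1c lower (-0.25, with -0.29 on the dye swap). Adipocyte markers were thinly measured, with Lep not above background on any array and 2 of 5 tested. Their summed intensity was 1111 to 2494 in Rap1-deficient liver and 886.6 to 1310 in wild-type liver, and Cidec, a lipid droplet gene, was at 0.67 (adjusted p = 0.102) with its brightest probe and 0.10 (adjusted p = 0.507) with another. Their part in the values of the members was not tested. Of 5 acinar markers 4 had a probe, and none of these passed the filter. Of 2 tested cholangiocyte markers, Krt19 was called at 0.38 and Sox9 was at -0.09 (adjusted p = 0.713), while Krt7 and Epcam did not pass the filter. Their summed intensity was low, 262 to 390.4 in Rap1-deficient liver and 293.9 to 316.9 in wild-type liver. Stellate cell markers held 0 called genes of 6, with Reln at 0.20, well above background in wild-type liver on 1 array only. Of 5 endothelial markers, Kdr (1.30, with -0.35 on the dye swap) and Pecam1 (0.40, with -0.09) were called higher, and Stab2 was at 0.07. Of 3 T and B cell markers, Cd3e (0.68, with -0.22 on the dye swap) and Cd3g (1.04, with -0.14) were called higher, Cd3g being well above background in Rap1-deficient liver on 4 arrays and in wild-type liver on 1.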

How the data were processed

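Gene expression was analysed from 4 Agilent 2-colour arrays of mouse liver on 1 slide with 1 scan time. The authors deposited the spot and background intensities of each scan (Agilent Feature Extraction 10.7.3.1, per the file headers), the software's processed intensities and the log10 ratio of Cy5 over Cy3. The median spot and background intensities were used. The authors also deposited a table of log2 ratios, credited to limma in the submitters' processing notes, with medians per column of -0.01, -0.02 and -0.02 in replicates 1, 2 and 3 and 0.000826 in the dye swap. By its correlation with the scans (-0.65 for the dye swap and 0.77 to 0.80 otherwise) the sign of its dye swap was already turned. How its values were corrected for background and normalized is not given in the sources used.

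Normexp (offset 50) was applied to the intensities, followed by within-array loess with control spots at weight 0 (limma 3.58.1, R 4.3.3). Spots of a probe were averaged without outlier-flagged spots, which left out 5 probes. Tests covered the 27513 probes (49.4%) with a share of 0.5 or more of their spots flagged above background on all 4 arrays for 1 or both genotypes. No spot was saturated, and 50.1% to 56.4% of spots per channel were well above background. The number of arrays limits the precision. The dye swap was taken as the swap of replicate 1 from its number. Tests were limma intercept fits over 3 pairs with Benjamini-Hochberg adjustment over all tested probes. Channel intensities of single probes were taken after loess and quantile normalization of mean intensities. The median SDs and the correlations of the channels over all tested probes were taken after normexp and quantile normalization within each dye, without loess. The bound on Terf2ip sets the mean of wild-type liver over that of Rap1-deficient liver with, per array, the higher of the probe's own signal and the lowest signal well above background. 26056 probes (46.8%) were named by accession through RefSeq genes of GRCm38.p6. On simulated data with 27513 probes and 200 changed, the 3-pair fit found 67% of 1-unit and 97% of 2-unit log2 changes (22 false calls). The dye-term fit found 67% and 95% (26 false calls). The simulated noise was independent between arrays, and a dye effect was added only for the dye-term fit. The false calls of the 3-pair fit on the real arrays, where the dye orientations differ, are therefore not measured by it.

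The members and lists were chosen with earlier results of these data known. Named were every member probe, Terf2ip and up to 4 genes per list with the smallest p among those of 1 sign on all arrays. Called list genes, 7 pathway list genes that were not called and the marker Sox9 were named after their values were seen. Background correction, normalization, the filter, the dye swap, the replicates and the block were varied. RNA integrity numbers were 6.6 to 8.7, not split by genotype. The promoter of 1 further member is not reported here.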

Additional observations from a re-analysis of the deposited data

Results flagged for a closer look

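For 5 member probes the 3 arrays with Rap1-deficient liver in Cy5 all lay on one side of 0 and the dye swap on the other. The share of all tested probes with this pattern was not counted. The mean log2 ratio of the 3 arrays minus that of the dye swap was 2.08 for the Kmo probe A_55_P2145606, 0.58 for Tdo2, 0.50 for Afmid, 0.38 for Qprt and -0.48 for the Kynu probe A_52_P118560. Tested with the dye term in limma, the difference passed a false discovery rate of 0.15 for the Kmo probe (adjusted p = 0.0204) and for Afmid (adjusted p = 0.136), and missed it for Qprt (adjusted p = 0.154), Kynu (adjusted p = 0.225) and Tdo2 (adjusted p = 0.321). This difference passed for 2 of the 12 member probes (16.7%), against 27.6% of all tested probes, and rests on 1 dye-swapped array. Why the orientations differ was not tested.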

How the results depend on the processing

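Of 192 member probe values under 16 alternative settings, 148 kept their direction and their side of the threshold, 24 lost the call, 11 gained it and 9 changed sign. Of 525 values for other named genes, 405 kept both, 110 lost the call, 5 gained it and 5 changed sign. The array-wide count of 9488 called probes (60.3% higher) became 1844 with the dye term, 83 with the dye swap as its own replicate and 14496 without the dye swap. The member count of 4 became 1, 0 and 6 in the same order. With the dye swap averaged with replicate 2, the member count was 2, against 29.3% of all tested probes called. Leaving out 1 replicate gave 7 (without replicate 2) to 12596 called probes (without replicate 1, which also leaves out the dye swap) and 0 to 7 called members, with 2735 and 1 without replicate 3. The share of calls that were higher was 49.3% with the software's processed signals, 45.3% with the authors' value table and 87.7% with median centring. With the dye term Haao was at -0.081 and Qprt at -0.042, and with the authors' value table Qprt was at -0.0089. The Kynu probe A_55_P1965975 was at 0.048 without the dye swap and at 0.028 with the dye swap averaged with replicate 3. Leaving out 1 replicate gave -0.091 (without replicate 2) to 0.011 (without replicate 3) for this probe and -0.21 (without replicate 3) to 0.043 (without replicate 1 and the dye swap) for Nnmt. Under median centring the median of all tested probes was 0.17, and Kynu A_55_P1965975 (0.12), Nnmt (0.066), Kyat3 (0.11), Naprt (0.10) and Serpina1c (0.0051) were positive but lay below that median, at -0.05, -0.11, -0.06, -0.07 and -0.17 relative to it. Stab2 was at -0.021 with processed signals and at -0.00051 with the authors' value table. As the mean of its 2 probes Kmo was at 0.81, against 0.36 for its brighter probe. Without the pairing, channels compared with no replicate block gave 10607 called probes and 4 called members, Afmid in place of Tdo2. The causes were not tested.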
